A study of Canis lupus familiaris with 28 samples.

Results

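Genes of the eukaryotic translation initiation factors (eIFs) were described in blood RNA of dogs with atopic dermatitis (AD) and of healthy dogs. The members were all array probes that are not controls and whose gene name starts with EIF followed by a digit from 1 to 6, without EIF2AK2, a kinase induced by interferon. The rule gave 48 of 34382 gene names, read by 95 of 43603 probes, and used no measured value. Of these, 94 probes of all 48 genes passed the filter on low signals and were tested. The remaining probe, for EIF2S1 at transcript position 2598, had a median processed signal of 39.7 in the AD dogs and was not tested.

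RNA came from whole blood, per the labels, of 20 AD dogs and 8 healthy dogs, with 1 array for each dog. The dogs were privately owned, of several breeds and both sexes, and the labels give neither age nor treatment. The RNA of each dog carried Cy5 and was hybridized against a Cy3-labelled common reference, a pool of RNA from 13 other healthy dogs. No dyes were swapped, so a single ratio to the pool is open to dye bias, while the difference between the groups compares ratios of 1 dye orientation. The dogs differ in many respects besides disease. A p-value here sets the difference against the spread between arrays, in which animal, slide and scan day are mixed.

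Translation initiation brings the small ribosomal subunit to the start codon of an mRNA. The factor eIF2 delivers the initiator tRNA as a complex with GTP, and eIF2B recharges it with GTP after each round. Kinases of the EIF2AK family phosphorylate eIF2 under stress, which blocks that recharging. The cap-binding complex eIF4F (eIF4E, eIF4A and eIF4G) recruits the mRNA, eIF3 links the mRNA to the subunit, and eIF5 and eIF5B act at the joining of the large subunit. Proteins that bind eIF4E restrain this route. EIF4ENIF1 encodes the eIF4E transporter 4E-T, which carries eIF4E into the nucleus and is a component of cytoplasmic P-bodies, where mRNAs are stored or decapped.

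The results below turn on a few 60-base probes, shown for EIF4ENIF1, EIF2B4 and EIF4A2 because probes of the same gene gave unlike readings, and for EIF4G1, which has 1 probe, because its difference was the lowest. The third EIF4ENIF1 probe is described by its values alone. The sequences were copied from the deposited array files, in lower case and 5′ to 3′, and transcript positions are those the files give. The EIF4ENIF1 probes lie on the minus strand of canFam3 at chr26:24385262-24389327, which spans an intron, and at chr26:24357220-24357279. The EIF4G1 probe lies on the plus strand at chr34:17204175-17204436, also across an intron. Both EIF2B4 probes cross an intron on the minus strand, at chr17:21323075-21323328 and chr17:21321537-21321716. The EIF4A2 probes lie on the plus strand at chr34:19356340-19356399 and chr34:19358250-19358309, on either side of the place in the transcript where the sign of its differences turned.
EIF4ENIF1, transcript position 367: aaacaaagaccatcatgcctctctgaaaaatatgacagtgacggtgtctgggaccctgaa
EIF4ENIF1, transcript position 2564: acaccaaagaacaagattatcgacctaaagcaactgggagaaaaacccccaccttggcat
EIF4G1, transcript position 2312: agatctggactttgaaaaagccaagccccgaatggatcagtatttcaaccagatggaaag
EIF2B4, transcript position 741: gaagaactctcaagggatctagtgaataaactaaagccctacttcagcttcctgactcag
EIF2B4, transcript position 1358: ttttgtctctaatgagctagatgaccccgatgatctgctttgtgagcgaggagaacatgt
EIF4A2, transcript position 260: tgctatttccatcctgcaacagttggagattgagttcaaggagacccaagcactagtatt
EIF4A2, transcript position 791: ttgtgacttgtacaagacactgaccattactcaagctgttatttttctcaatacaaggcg

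The share of all probes well above background was 84.3% to 90.3% on the healthy arrays and 51.7% to 87.5% on the AD arrays, and the number of arrays limits the precision. The initiation factor probes were bright, with 93.7% to 100% well above background on each AD array, a signal well above background from the dog's RNA on all 28 arrays for 88 of the 94, and no saturated spot. The healthy arrays occupied 2 slides scanned on 1 day, and the AD arrays 6 other slides scanned on 4 other days, so slide, scan day and group cannot be told apart. Arrays correlated with a median r of 0.17 over all tested probes, and the least alike pair had an r of -0.40, with the dye direction taken from the study's methods. T cell markers were well above background on all arrays for 7 of 7 genes tested, as were 7 of 7 neutrophil, 8 of 8 erythroid and 6 of 6 monocyte markers. The same held for 4 of 4 platelet and 4 of 7 B cell markers, and for 3 of 5 tested genes of other tissues.

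No initiation factor gene differed between AD and healthy dogs after adjustment. Values are log2 ratios of the dog to the pool, centred on each array's median, and differences are AD minus healthy. By limma with Benjamini-Hochberg adjustment over 30202 probes, 0 of 94 probes reached an adjusted p of 0.085, the study's threshold, or 0.05, the lowest value being 0.490. The study, which tested fewer transcripts after its own filter on signal, listed EIF4ENIF1 as lower in AD at 0.085. That call was not obtained here. Before adjustment, 2 of 94 (2.13%) were under 0.05, both lower in AD, against a background of 6.12% of all probes tested, with 4.46% lower and 1.65% higher. The 2 probes were those of EIF4ENIF1 at position 367 and of EIF4G1.

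Of the 94 probes 46 (48.9%) were lower in AD, against 52.1% of all probes. Taking the brightest probe for each gene, 24 of the 48 genes were lower in AD and 24 higher, with a median difference of 0.0080. Over all 23379 genes tested the median was -0.013, with 52.8% lower. The 95% interval of the difference lay within 0.5 of zero, on the log2 scale, for 70 of 94 probes and 38 of 48 genes. Initiation factor probes had a median standard error of 0.142, compared with 0.170 over all probes. The median SD among AD dogs was 0.341 for these probes and 0.433 for all probes, and among healthy dogs 0.310 and 0.297.

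**Figure D1:**
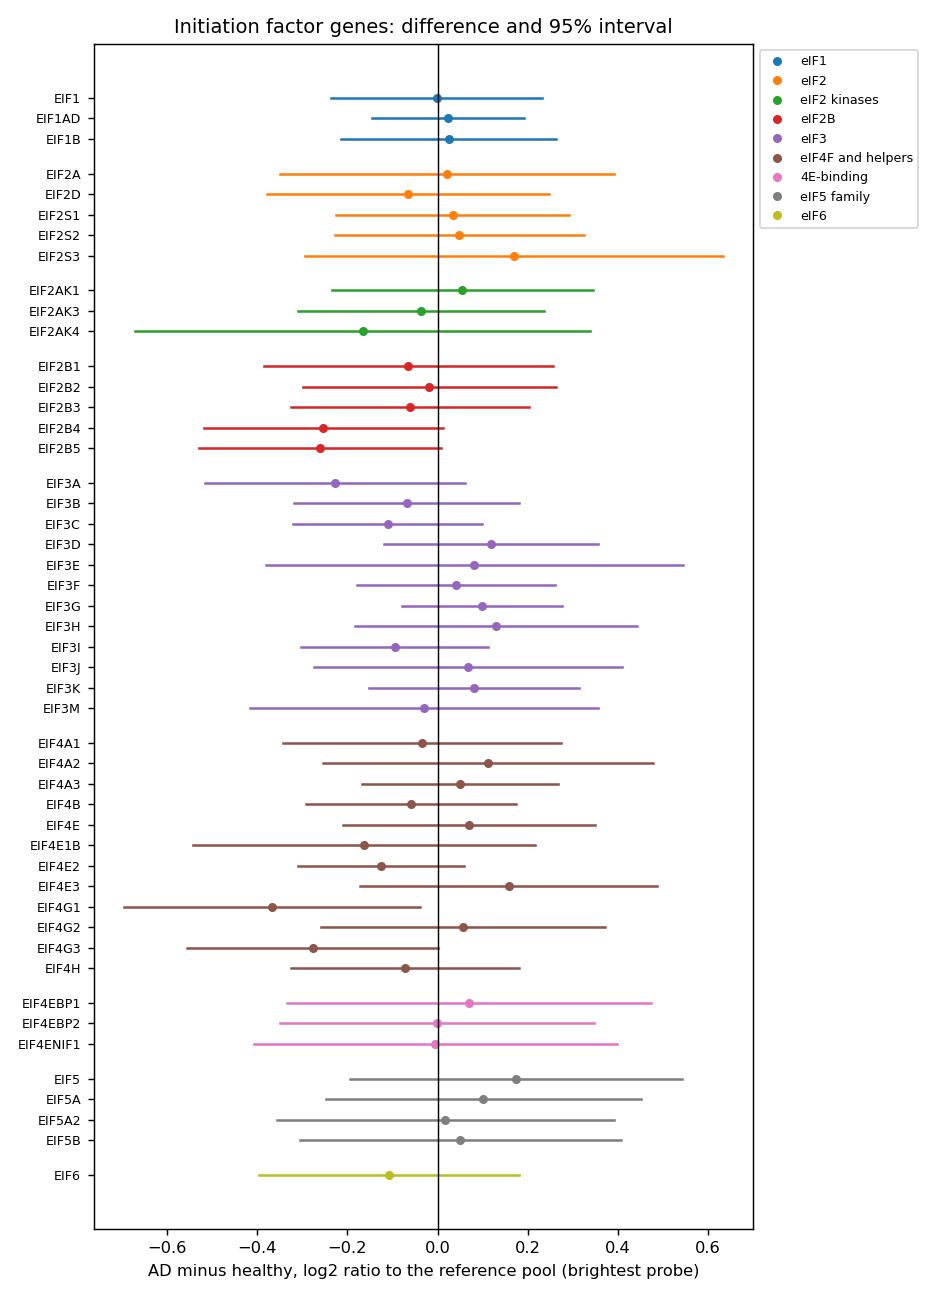
Difference between AD (n = 20) and healthy dogs (n = 8) for the brightest probe of each of 48 initiation factor genes, in log2 units on the horizontal axis, with 95% intervals as bars and colors for the functional groups. Points lie between -0.37 (EIF4G1) and 0.17 (EIF5), and only the interval of EIF4G1 leaves out zero.

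EIF4ENIF1 was measured by 3 probes, and it was named with its earlier result in these samples known. With the probe at position 367, log2 ratios ran from -0.67 to -0.016 in the AD dogs, with a median of -0.25. The healthy dogs ran from -0.13 to 0.22, with a median of 0.12. The groups overlapped little: 16 of 20 AD dogs were below the lowest healthy dog, and 20 of 20 were below the healthy mean. The mean was -0.27 ± 0.16 (SD, n = 20) in AD and 0.086 ± 0.115 (SD, n = 8) in healthy dogs, a difference of -0.36 (SE 0.086, limma adjusted p = 0.490) and a ratio of 0.779. Its unadjusted p of 0.000216 by limma was the 4th smallest of all probes tested.

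On each of the 4 AD scan days the mean of this probe lay between -0.35 and -0.20, whereas the healthy scan day was at 0.086. With scan day as a random block the adjusted p was 0.784 by limma, and with slide as a random block 0.996. Estimated with normexp background correction and loess, the difference was -0.16 with a limma adjusted p of 0.122. The reference channel of this probe was 0.087 higher on the AD arrays (limma adjusted p = 0.370), and the dog's channel alone differed by -0.29 (limma adjusted p = 0.113).

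The other EIF4ENIF1 probes did not show the same separation. At position 2564 the AD dogs ran from -1.59 to 0.41 with a median of -0.037, and the healthy dogs from -0.26 to 0.48 with a median of 0.21. The groups overlapped, and the lowest AD values came mostly from the scan day with the weakest arrays, where the mean was -0.71. The difference was -0.35 (SE 0.186, limma adjusted p = 0.843), and -0.13 without the 6 arrays of that day. The brightest probe, at position 3601 on another transcript model of the gene, ran from -1.27 to 0.37 in AD and from -1.28 to 0.47 in healthy dogs. Its difference was -0.0049 (SE 0.198, limma adjusted p = 0.997), with the groups covering nearly the same range.

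Within the AD dogs the 3 probes were unevenly correlated. The probes at 3601 and 2564 correlated negatively (r = -0.54, rho = -0.76, n = 20, permutation p = 0.0126, adjusted p = 0.0293 over 194 correlations), with r = -0.49 without the 2 dogs farthest from the median and r = -0.32 after slide means were removed. Those at 367 and 2564 had r = 0.41 (rho = 0.47, permutation p = 0.0695, adjusted p = 0.118), and r = 0.64 after slide means were removed. Those at 367 and 3601 had r = -0.015 (rho = -0.14, permutation p = 0.949, adjusted p = 0.969), and r = -0.073 after slide means were removed. All 3 probes were below their healthy means in 4 AD dogs, and 2 of the 3 were in the other 16.

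**Figure D2:**
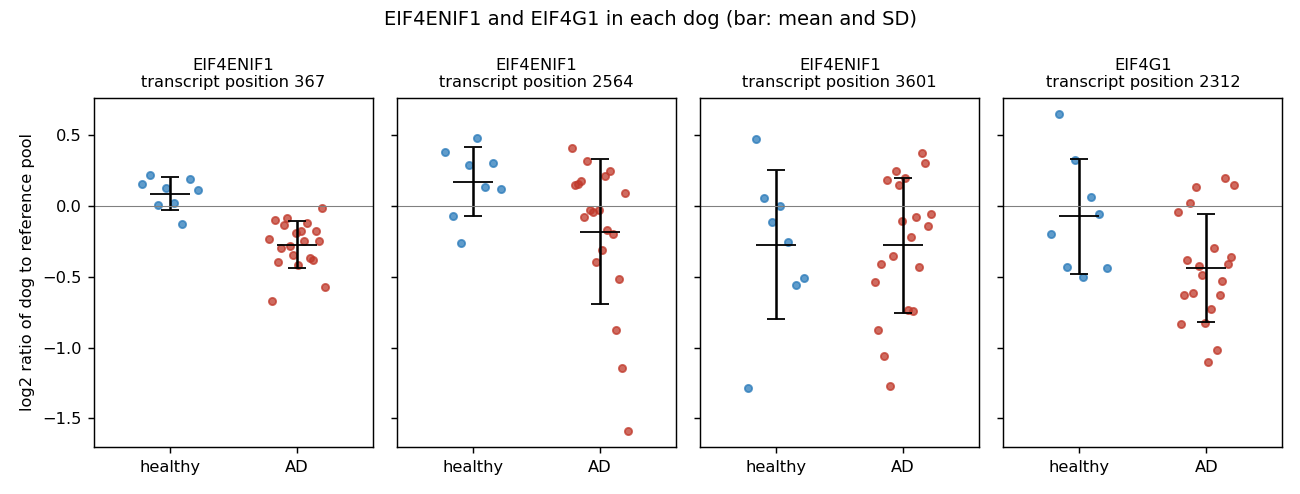
Log2 ratio of each dog to the reference pool for the 3 EIF4ENIF1 probes and the EIF4G1 probe, with healthy dogs (n = 8) in blue and AD dogs (n = 20) in red, and bars for mean and SD. At position 367, 16 AD dogs lie below every healthy dog, while at position 3601 the groups cover the same range.

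Among the factors of the cap-binding complex and its helpers, 7 of 12 genes were lower by the brightest probe (5 to 10 of 12 over 21 alternative settings), with a median of -0.047 (-0.11 to 0.063) and none past the adjusted threshold. EIF4G1, the scaffold that joins eIF4E, eIF4A and eIF3, ran from -1.10 to 0.20 in AD (median -0.46) and from -0.50 to 0.65 in healthy dogs (median -0.13). The groups overlapped, with 9 of 20 AD dogs below the lowest healthy dog and 15 of 20 below the healthy mean. The difference was -0.37 (SE 0.161, unadjusted p = 0.0301, limma adjusted p = 0.714). Without slide 2, which held healthy dogs, it was -0.20 (limma p = 0.322). Its dog's channel alone gave -0.45 (limma adjusted p = 0.103) and its reference channel -0.074 (limma adjusted p = 0.595).

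EIF4G3, a relative of EIF4G1, had the next lowest value, -0.28 (SE 0.137, limma adjusted p = 0.816), with 17 of 20 AD dogs below the healthy mean. EIF4G2, which lacks the part that binds eIF4E, was at 0.057. The highest of this group was EIF4E3, a cap-binding relative of eIF4E, at 0.16 (SE 0.161, limma adjusted p = 0.879), from a dim probe with a median signal of 89.5 in AD dogs. EIF4E itself was at 0.070 by its brightest probe and at -0.13 by its other probe. EIF4A1, the main eIF4A helicase, was at -0.035. The probes of EIF4A1 and EIF4E2, and 1 of EIF4B, lie in the files on another chromosome than the gene has in RefSeq (UU_Cfam_GSD_1.0), so they may read a copy of the gene.

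Of the eIF4E-binding proteins, which the kinase mTORC1 controls, EIF4EBP1 was at 0.070 (SE 0.198) and EIF4EBP2 at -0.0017 (SE 0.171). The AD dogs ran from -1.24 to 0.89 for EIF4EBP1 and the healthy dogs from -0.65 to 0.78. Both ranges were wide next to the difference.

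All 5 subunits of eIF2B were lower by the brightest probe (median -0.065), none of them past the test, but in the dog's channel alone 3 of the 5 were lower, as they were without slide 2. EIF2B5, the catalytic subunit, ran from -0.68 to 0.41 in AD (median -0.15) and from -0.33 to 0.54 in healthy dogs (median 0.14). With 16 of 20 AD dogs below the healthy mean and the groups overlapping, its difference was -0.26 (SE 0.132, limma adjusted p = 0.829). A second probe gave -0.12 (SE 0.123). The reference channel of the first probe was 0.30 higher on the AD arrays (limma adjusted p = 0.000454), while the dog's channel alone differed by 0.043 (limma adjusted p = 0.893).

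EIF2B4, a regulatory subunit of the exchange factor, gave opposite readings by its 2 probes. At position 1358, the brightest, AD dogs ran from -0.96 to 0.32 (median -0.17) and healthy dogs from -0.27 to 0.52 (median 0.031), a difference of -0.25 (SE 0.130, limma adjusted p = 0.838). At position 741, AD dogs ran from -0.73 to 1.35 (median 0.45) and healthy dogs from -0.63 to 0.83 (median 0.0087), a difference of 0.35 (SE 0.251, limma adjusted p = 0.866). The mean of both probes gave 0.050. In the dog's channel alone the values were -0.054 and 0.077, and the reference channel differed by 0.21 (limma adjusted p = 0.00722) and -0.29 (limma adjusted p = 0.0148).

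The EIF2B4 probes correlated negatively within each group of dogs, but in the 8 healthy dogs the correlation did not pass the test. In AD dogs their correlation was r = -0.66 (rho = -0.64, n = 20, permutation p = 0.00111, adjusted p = 0.00406), with r = -0.57 without the 2 farthest dogs and r = -0.65 after slide means were removed. In healthy dogs it was r = -0.55 (rho = -0.71, n = 8, exact permutation p = 0.156, adjusted p = 0.223), with r = -0.88 without the 2 farthest dogs. AD dogs with a high reading on one probe tended to have a low reading on the other.

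**Figure D3:**
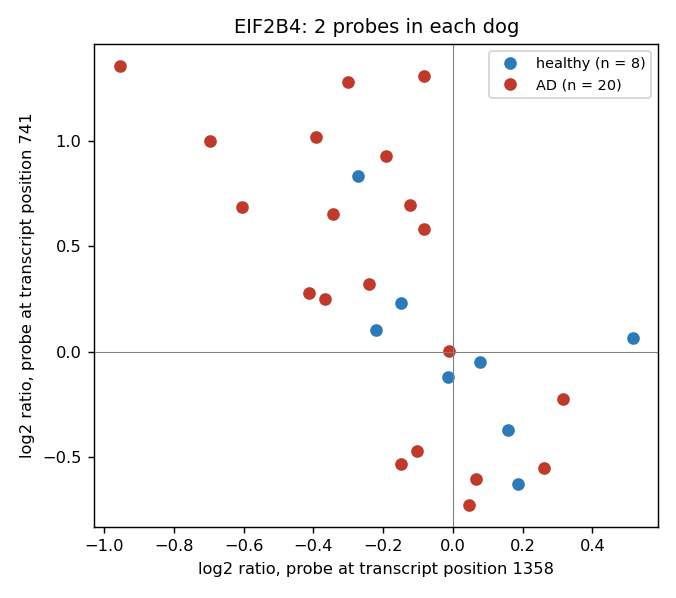
Log2 ratios of the 2 EIF2B4 probes in each dog, with position 1358 on the horizontal and position 741 on the vertical axis, AD dogs in red and healthy dogs in blue. The points run from upper left to lower right, with r = -0.66 in AD and r = -0.55 in healthy dogs.

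Subunits of eIF2 and related factors that bring the initiator tRNA had a median difference of 0.034, with 1 of 5 genes lower, but the sign turned with 1 slide left out: 5 of 5 were lower without slide 3 (median -0.069) and 3 of 5 without slide 5 (-0.022) or slide 8 (-0.029). With array weights 4 of 5 were lower (median -0.13). EIF2S3, the subunit that binds GTP and tRNA, was highest at 0.17 (SE 0.228), and EIF2D was lowest at -0.066 (SE 0.153). The eIF2 kinases, of which 0 to 3 of 3 were lower over the alternative settings, gave 0.055 (SE 0.142) for EIF2AK1, which responds to heme shortage, -0.037 for EIF2AK3 of the endoplasmic reticulum, and -0.17 (SE 0.247) for EIF2AK4, which responds to amino acid shortage. EIF2AK4 ranged from -1.34 to 0.77 in AD and from -1.17 to 0.61 in healthy dogs, one of the wider spreads.

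The scaffold complex eIF3 was represented by 12 genes, 5 of them lower with a median of 0.054, but neither held across settings: 11 of 12 were lower with array weights (median -0.071), 9 of 12 without the scan day of the weakest arrays (median -0.081), and 7 of 12 without slide 3 (median -0.063), without slide 8 (median -0.032) or in the dog's channel alone (median -0.013). EIF3A, its largest subunit, was lowest at -0.23 (SE 0.142, limma adjusted p = 0.866) and was below zero by all 4 probes, from -0.23 to -0.019, though by 2 of the 4 in the dog's channel alone. By the brightest probe EIF3H was highest at 0.13 (SE 0.153), but its 3 probes ran from -0.00061 to 0.13. EIF3J, which binds loosely to the complex, had probes that nearly coincided, at 0.067 and 0.027.

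The eIF3 genes tended to move together across the AD arrays, and less evenly across the healthy arrays. Over 66 pairs of eIF3 genes the median correlation was 0.59 in AD dogs, compared with 0.23 over 1128 pairs of all initiation factor genes, and 0.36 compared with 0.14 in healthy dogs. Single eIF3 pairs ran from 0.067 to 0.91 in AD dogs and from -0.62 to 0.94 in healthy dogs. These correlations are descriptions over genes that share arrays, with slide and scan day not removed. The 1128 pairs include those of the eIF3 genes. The median log2 ratio of the eIF3 genes ran from -0.62 to 0.27 in AD dogs (median -0.10) and from -0.38 to 0.087 in healthy dogs (median -0.14), so the healthy range lay inside that of the AD dogs. By scan day its mean was -0.36, -0.24, -0.078 and 0.022 on the 4 AD days and -0.14 on the healthy day. The AD day with the highest value was also that with the fewest probes well above background, 51.7% to 63.2%, and the part of array quality in the eIF3 level was not tested.

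**Figure D4:**
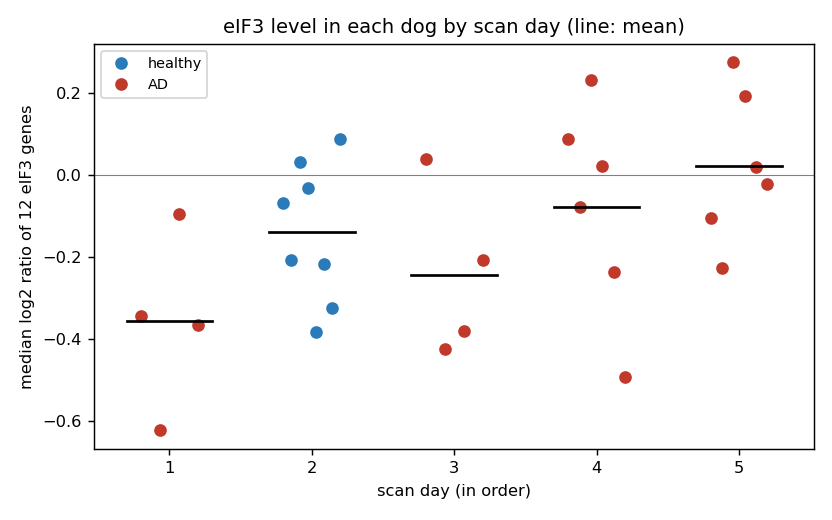
Median log2 ratio of 12 eIF3 genes in each dog, by scan day in order, with AD dogs in red, healthy dogs in blue and lines for the mean of each day. Means range from -0.36 on the first day to 0.022 on the last, and all healthy dogs were scanned on the second day.

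No factor of the later steps passed the test. EIF5, which triggers GTP hydrolysis by eIF2, was the highest gene at 0.17 (SE 0.181, limma adjusted p = 0.879), and its 4 probes spanned -0.11 to 0.20. EIF5A, the hypusine-bearing factor now known mainly for elongation, gave 0.10 and 0.14 by its probes, and EIF5A2 gave 0.017. All 4 genes of the eIF5 family were above zero with intervals that crossed it, but 2 of the 4 were below zero in the dog's channel alone, with array weights, and without slide 3 or slide 8. EIF6, which keeps the large subunit apart from the small one, was at -0.11 (SE 0.141).

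No gene grouped with the start-site factors passed the test, and the differences of their probes ran from -0.12 to 0.025. EIF1AD was placed in this group by its name alone, and these data do not show a part for it in start codon choice. EIF1, which guards start codon choice, was at -0.0014 (SE 0.115) by its brightest probe and at -0.12 (SE 0.121) and -0.076 (SE 0.141) by the others. EIF1B was at 0.025 (SE 0.117) and EIF1AD at 0.023 and 0.0019 by its probes. For EIF1AD the 95% interval of the brighter probe ran from -0.15 to 0.19.

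Agreement between probes was uneven. Of 24 genes with at least 2 tested probes, 16 had differences of the same sign by all probes and 8 had mixed signs. EIF2B4 had the widest range (0.61), then EIF4ENIF1 (0.36), EIF5 and EIF4A2 (0.31 each) and EIF3A (0.21). EIF4A3, a helicase of the exon junction complex, had the narrowest (0.019), followed by EIF1AD, EIF2B3, EIF3J and EIF5A. In AD dogs the correlations of the 97 pairs of probes of the same gene had a median of 0.57, compared with 0.11 for 4274 pairs of probes of different initiation factor genes. In healthy dogs the medians were 0.65 and 0.20. Among the same-gene pairs, 6 of 97 correlations were below zero in each group, 5 of them in both groups. The 4 pairs of probes that overlap in sequence, of EIF3D, EIF4A2, EIF4A3 and EIF4H, correlated at 0.96 to 0.99 in AD dogs.

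EIF4A2, which encodes the second eIF4A helicase, had 9 probes on 1 transcript, and its readings differed along it. The 4 probes at positions 260, 351, 544 and 632 were lower in AD, by differences of -0.17 to -0.075. The 5 probes at positions 791, 1267, 1598, 1761 and 1782 were higher, by 0.091 to 0.14. None of these differences passed the test, and every 95% interval included zero. The signs rested on single slides of healthy dogs: without slide 2 the first 4 probes were at 0.0028 to 0.12, and without slide 3 the last 5 were at -0.15 to -0.12. The last 5 were also below zero with array weights, at -0.14 to -0.0041, and in the fit with dog number as a block. In AD dogs the 4 probes before position 700 correlated among themselves with a median r of 0.86 and the 4 from position 1267 on with a median of 0.96, while pairs between these sets had a median of 0.32. The probe at 791 lay between, with r of 0.56 to 0.59 with the later set and 0.28 to 0.52 with the earlier. The healthy medians were 0.98 and 0.94 within the sets and 0.57 between them. The sets were drawn from these same data, at the place where the sign of the differences turned, with the probe at 791 kept apart. The probes at 1761 and 1782 in the later set share 39 bases. Over genes with probes at separate transcript positions, the 5′ probe had the lower difference in 10 of 19 initiation factor transcripts (52.6%) and in 48.9% of 3375 others.

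**Figure D5:**
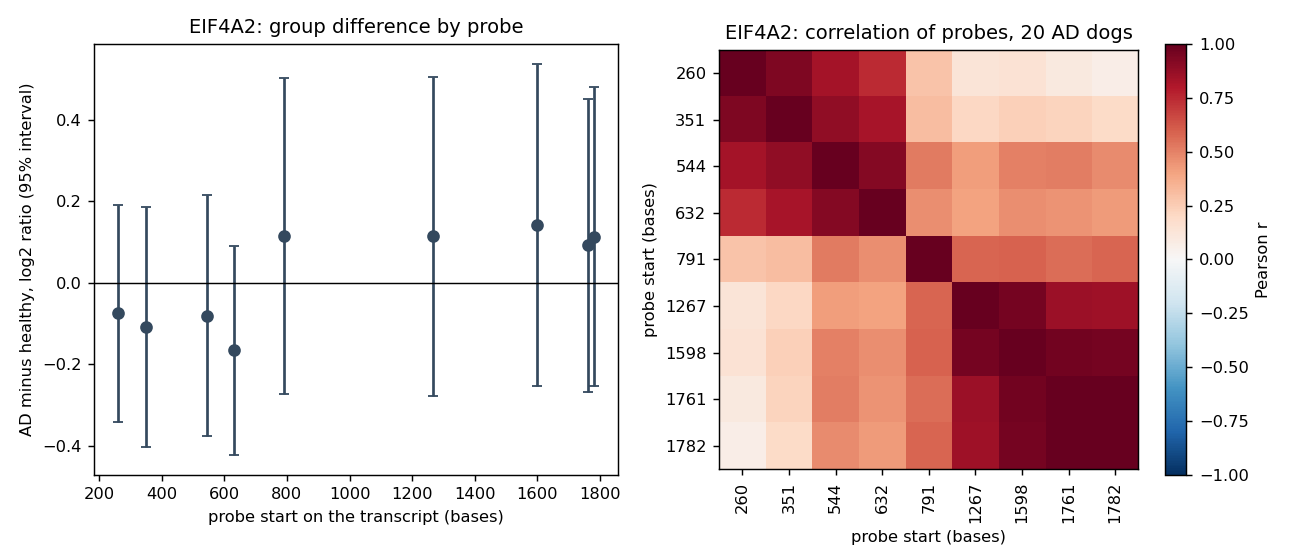
The left panel shows AD minus healthy differences (log2, 95% intervals) of the 9 EIF4A2 probes by their start on the transcript in bases, and the right panel shows Pearson correlations between the probes over 20 AD dogs. Probes before position 700 lie below zero (above it without slide 2). Later ones lie above zero (below it without slide 3, with array weights or with dog number as a block). The 4 probes before 700 and the 4 from 1267 on correlate within each set more than between the sets. The probe at 791 lies in between.

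The reference pool is the same RNA on every array, yet its channel differed between AD and healthy arrays for 40 of 94 initiation factor probes (42.6%) at a limma adjusted p of 0.085, against 39.1% of all probes. Of these, 34 were higher and 6 lower on the AD arrays, where 21.1% and 17.9% of all probes were called. In the dog's channel alone 1 of 94 probes (1.06%) was called, against 4.14% of all. This was a probe of EIF4H, a helper of the eIF4A helicase, at 0.53 (limma adjusted p = 0.0271), and its reference channel was 0.42 higher on the same arrays (limma adjusted p = 4.51e-05). The ratio of that probe differed by 0.12 (SE 0.129, limma adjusted p = 0.884).

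Pathways next to initiation also had no gene past the adjusted threshold. Of the genes that control the cap complex through mTORC1, 8 of 14 tested were lower, with a median of -0.061, and 0 reached an unadjusted p of 0.05. Genes of the integrated stress response, which follows eIF2 phosphorylation, had 3 of 10 lower and a median of 0.076, and the elongation and termination factors had 4 of 9 lower and a median of 0.011, with 0 at that p in either list. ATF4, the transcription factor whose mRNA is translated when eIF2 is phosphorylated, was at -0.012 (SE 0.135).

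Genes of P-bodies and decapping, the compartment of 4E-T, had 10 of 17 lower and a median of -0.023. EDC3, an activator of the decapping enzyme, was the only gene of the 50 tested in these 4 lists (2%) under an unadjusted p of 0.05, against 6.95% of all genes, at -0.34 (SE 0.10, limma p = 0.00211, adjusted p = 0.490). DDX6, a helicase that binds 4E-T, was at 0.061 (SE 0.207), and LSM14A, another partner, at -0.023 (SE 0.145).

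Of 44 cell type markers tested, 0 had an unadjusted p under 0.05 by limma, against the same 6.95% of all genes. T cell, B cell and monocyte markers had medians of -0.021, -0.0073 and 0.025. Erythroid markers had a median of 0.28 with 1 of 8 lower, neutrophil markers 0.18 with 1 of 7 lower, and platelet markers -0.30 with 4 of 4 lower. The mean log2 ratio of the erythroid markers in a dog ranged from -1.50 to 1.32 in AD dogs and from -1.30 to 1.07 in healthy dogs, and that of the platelet markers from -1.07 to 0.68 and from -0.84 to 0.77. In blood RNA, fewer cells of a type and less RNA per cell cannot be told apart. The part of cell composition in the values of EIF4ENIF1 and EIF4G1 was not tested.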

How the data were processed

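Two-color Agilent canine arrays were read out by the authors with Agilent Feature Extraction (version 10.7.3.1 per the labels, modules 10.10.1.1 per the file headers). The deposited files hold spot intensity on a linear scale, background-subtracted and Lowess dye-normalized by the authors, and a deposited log10 ratio of dog to reference, which was used as an alternative. Coordinates and sequences are those of the files, on canFam3.

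The work was done in R 4.3.3, with the package limma (3.58.1) for the tests. Control spots were left out, spots with outlier marks were set to missing, and spots of 1 probe were averaged. Probes needed values in at least 1 in 2 arrays of each group, a spot well above background on some array, and a median processed signal above 100 in at least 1 channel and group. Log2 ratios were centred on each array's median and tested by limma, with all 28 dogs in the fit and no covariate. A gene was represented by its brightest probe. Correlations used exact permutation for 8 dogs and 100000 permutations for 20. Scripts were tested on simulated data. Single channels were quantile-normalized. Figures used matplotlib.

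The members, gene lists and tests were chosen with earlier results of these data known. Named were EIF4ENIF1, genes with a probe at an unadjusted p under 0.05, the highest and lowest gene of each functional group, and the 5 genes with the widest and the 5 with the narrowest range between probes. Of the lists, genes at an unadjusted p under 0.05 were named. EIF4G2, EIF4G3, EIF4E, EIF4A1, EIF4EBP2, EIF2AK3, EIF4H, ATF4, DDX6 and LSM14A were added after their values were seen. Alternatives covered the filter, the outlier marks, background and dye correction, the authors' ratios, centring, single channels, slide and scan day blocks, a dog number block, array weights, the variance model, and leaving out slides or the weakest scan day.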

Additional observations from a re-analysis of the deposited data

Results flagged for a closer look

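A few healthy values stood far from the others of their group. For the EIF1B probe, the log2 ratio of healthy dog 2 was 0.52, with the next healthy dog at -0.10 and the lowest at -0.40. For a probe of EIF3B, healthy dog 7 was at -0.16, below the next at 0.17. The other 4 values were all the lowest of their group and came from healthy dog 5: -0.43 for a probe of EIF2S1, -0.43 for one of EIF2B5, -0.59 for one of EIF4E and -0.94 for one of EIF5B. This was 6 of 94 probes. Chance gives about 1 in 20 for independent probes, but these probes share arrays, and 4 of the 6 values came from 1 dog. Healthy dog 5 also had the lowest median log2 ratio of the initiation factor genes among the healthy dogs, -0.25. The share over all probes was not computed, so the count cannot be read as a trait of these genes.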

How the results depend on the processing

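No initiation factor probe passed an adjusted p of 0.085 in the reported analysis, nor under the other alternatives except with the dog's channel alone (1 probe, EIF4H) and with array weights (1 probe, EIF4ENIF1 at position 367, limma adjusted p = 0.0477). Across all probes those settings called 1251 and 1009. The count at an unadjusted p under 0.05, reported as 2, was 5 without the signal filter, 13 with the dog's channel alone, 11 with array weights and 1 with slide as a random block. It ranged from 1 to 3 when slides were left out in turn. Of all 30202 probes tested, 5879 (19.5%) fell under this p when only the dog's signal was used. That is a larger share than the 13 of 94 initiation factor probes. In the reported analysis the share of all probes was 6.12%. For the other alternatives the share over all probes is not given here, so their counts cannot be read as a change in the initiation factor probes. The cause of the shifts in the count was not tested. The log2 difference of EIF4ENIF1 at position 367 ranged from -0.40 to -0.16 and that of EIF4G1 from -0.53 to -0.20, below zero in all 21 settings that gave each a value. The brightest EIF4ENIF1 probe ranged from -0.24 to 0.38, the first being the mean of its 3 probes. The median of the genes ranged from -0.11 to 0.06, with the reported sign in 14 of 22 settings.

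Dog numbers are shared by both groups, but the sample titles number the dogs of each group apart, so the numbers were taken only to name the dogs. The deviations of same-numbered dogs correlated from -0.36 to 0.42, above 0.1 for 4 of 8 numbers. They were not compared with those of dogs with unlike numbers. With dog number as a replicate block, 9 probes had an unadjusted p under 0.05, the median of the genes was -0.11, and no probe passed adjustment. The share of all probes under that p is not given here, so the 9 cannot be read as a change in the initiation factor probes. AD dogs 9 to 20 have no healthy dog of the same number and did not contribute to the difference in this fit. It rested on AD dogs 1 to 8, scanned on days 1 and 3, the AD days with the lowest mean eIF3 levels (-0.36 and -0.24). Among these dogs 11 of 12 eIF3 genes (median -0.16) and 5 of 5 genes of eIF2 and its relatives (median -0.16) were lower in AD. Signal over background limits the dim probes.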
